A study of Mus musculus with 4 samples.

Results

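The early mevalonate pathway was read in adrenal glands of male mice, 2 months old, through 18 of 45037 probe sets. They are all those that the platform annotation gives to exactly 1 gene among Acat2, Hmgcs1, Mvk, Pmvk, Mvd, Idi1, Fdps and Ggps1, and they name 7 of these 8 genes. Acat2 was not analysed here. A value of 4 log2 units or more on 2 or more arrays was asked for testing, which 14 of the 18 met, as did 17228 probe sets in all. Mouse Genome 430 2.0 arrays had been hybridised with adrenal RNA of 2 genotypes, 2 arrays from V1a knockout mice, which lack the vasopressin receptor encoded by Avpr1a, and 2 from wild-type mice. The sources used here give neither the strain, nor the deleted part of Avpr1a, nor how many animals stand behind an array, so the spread between arrays of 1 genotype may be technical and p-values measure that spread only. All values are log2 expression units, and each difference is knockout minus wild type.

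The mevalonate pathway turns acetyl-CoA into isoprenoid diphosphates, from which cells build cholesterol, ubiquinone, dolichol and the lipid anchors of small GTPases. Its genes are classical targets of the transcription factor SREBP2, which is activated when the membranes of the endoplasmic reticulum run low in cholesterol. In the adrenal cortex cholesterol is also the starting material of all steroid hormones, and it comes from lipoproteins as well as from synthesis. The comparison asks how these transcripts read when the V1a receptor is missing.

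The stretches before the transcription start are shown for 3 members, because the probe sets of Hmgcs1 and Idi1 disagreed most below, and because the Mvk window held the most CCAAT matches of the members. Each is the 250 bases before the start, 5′ to 3′ on the strand of the gene, from RefSeq on GRCm38.p6. Windows were at hand for 7 of the 8 member genes, Acat2 among them. For Fdps there was none, so the matches below do not cover it. Capitals mark matches on either strand to TCACNCCAC, a form of the sterol regulatory element bound by SREBP, to CCAAT, the box bound by NF-Y, and to GGGCGG, the GC box bound by Sp1.
Hmgcs1, chr13:119690101-119690350, plus strand: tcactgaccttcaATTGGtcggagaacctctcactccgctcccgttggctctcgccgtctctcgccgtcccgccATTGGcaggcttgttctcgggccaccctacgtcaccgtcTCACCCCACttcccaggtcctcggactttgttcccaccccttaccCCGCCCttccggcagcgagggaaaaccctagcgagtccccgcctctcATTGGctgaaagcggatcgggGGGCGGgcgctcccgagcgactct
Idi1, chr13:8885356-8885605, plus strand: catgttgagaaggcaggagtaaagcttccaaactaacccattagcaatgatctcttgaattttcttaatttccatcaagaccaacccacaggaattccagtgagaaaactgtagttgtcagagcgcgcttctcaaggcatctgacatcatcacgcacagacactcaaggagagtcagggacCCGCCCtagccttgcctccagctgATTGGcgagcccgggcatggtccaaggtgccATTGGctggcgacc
Mvk, chr5:114444019-114444268, plus strand: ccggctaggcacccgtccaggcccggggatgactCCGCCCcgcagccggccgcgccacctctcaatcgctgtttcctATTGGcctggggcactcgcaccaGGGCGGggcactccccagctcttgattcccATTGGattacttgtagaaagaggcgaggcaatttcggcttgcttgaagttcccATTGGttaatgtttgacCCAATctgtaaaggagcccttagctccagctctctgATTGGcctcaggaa
Among 8 windows of the member genes, with 2 for Pmvk, TCACNCCAC was found in 1, that of Hmgcs1, where it lay 137 to 129 bases before the start. It was found in 1.05% of the 32851 windows of this length over all genes. CCAAT was found in 6 of the 8 windows and in 33.8% of all, and GGGCGG in 5 of the 8 and in 32.7% of all. The Mvk window held 5 matches to CCAAT, the Hmgcs1 window 3 and the Idi1 window 2. No 2 matches overlapped in the windows shown. A match is a description of the letters and no shown binding site.

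Facts of the whole series bear on the members as follows. The correlation between the 2 knockout arrays over all tested probe sets was 0.986, and that of wild-type array 2 with each of them 0.974 and 0.981. For wild-type array 1 it was 0.919 to 0.924 with every other array, so results below are also given without it, where wild-type array 2 alone stands for its genotype and is assumed to vary like the knockout arrays. Wild-type array 1 lay more than 2 log2 units below the lowest of the other arrays on 363 tested probe sets (2.11%), while each of the other 3 arrays did so on 1 to 7. In the limma fit 0 of 17228 probe sets (0%) passed an adjusted p of 0.05, and 885 (5.14%) had an unadjusted p under 0.05. For a single value, an exact two-sided permutation test of 2 arrays against 2 cannot go below 0.333. Avpr1a read 2.53 and 2.60 in the knockout and 2.53 and 2.53 in wild type on 1 of its probe sets, and 2.31 to 2.33 on the other, near the lowest value of the arrays (2.30), so it does not check the labels.

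Over all tested probe sets, both knockout arrays lay below both wild-type arrays on 20% and above them on 17.4%. These shares are the background of the marker counts that follow. The 7 markers of the adrenal cortex were all tested, 2 of them lower on both knockout arrays. The log2 of their summed level was 16.25 and 16.20 in the knockout and 16.27 and 16.25 in wild type. They were bright on every array, with Star, the carrier of cholesterol into mitochondria, at 14.24 and 14.17 in the knockout and 14.12 and 14.23 in wild type. The 6 medulla markers summed to 15.60 and 15.01 in the knockout and 15.70 and 15.09 in wild type, with no marker set apart by genotype. Fat, liver and macrophage markers differed more between arrays. Of 7 fat markers 6 were named and 5 tested, 3 of them (Slc2a4, Ucp1 and Cidea) lower on both knockout arrays than on both wild-type arrays. The groups overlapped for Adipoq, at 7.76 and 10.16 in the knockout and 9.60 and 8.84 in wild type. They also overlapped for Cidec, at 4.28 and 6.65 in the knockout and 5.85 and 5.05 in wild type. The log2 of the summed level of the fat markers was 8.26 and 10.50 in the knockout against 11.53 and 9.87 in wild type. Lep sat at the lowest value on all arrays. Of 6 liver markers Serpina1b alone was tested, at 2.30 and 2.30 in the knockout and 7.97 and 7.20 in wild type. It passed the filter through the wild-type arrays alone, so its lower knockout order was fixed by the filter. The log2 of the summed level of the 6 liver markers was 5.09 and 5.11 in the knockout against 10.42 and 7.44 in wild type. Alb read 2.43 and 2.43 in the knockout and 8.86 and 2.42 in wild type, so that wild-type array 1 alone was high. The 5 kidney markers were near the lowest value on all arrays, at 2.30 to 3.35. Of 6 macrophage markers Cd68 and Ctss were higher on both knockout arrays and Csf1r lower, and the sum was 12.08 and 12.79 in the knockout and 11.87 and 11.92 in wild type. The part of medulla, fat, liver and macrophage RNA in the differences below was not tested. In whole glands fewer cells of a type and less RNA per cell cannot be told apart. The 5 endothelial markers, none set apart by genotype, summed to 10.75 and 10.44 in the knockout and 10.91 and 10.24 in wild type. Signal of the 3′ over the 5′ control probe set, a measure of RNA integrity, was 0.39 and 0.63 log2 units for Gapdh in the knockout and 0.80 and 0.60 in wild type. For Actb it was 2.19 and 2.63 in the knockout and 2.12 and 2.46 in wild type. For Pcx it was 6.86 and 7.30 in the knockout and 7.46 and 7.20 in wild type, and for Tfrc 0.11 on all arrays. Wild-type array 1 was thus highest for Gapdh and Pcx and lowest for Actb, and the part of RNA integrity in its readings was not tested.

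With 1 probe set for each gene, the one with the highest mean, 6 of the 7 mevalonate enzymes read lower in the knockout and Ggps1 higher, and the median difference was -0.81. Over the 10110 genes tested the median was -0.05, and 56% lay lower. Hmgcs1, Idi1 and Fdps were past an unadjusted p of 0.05 in limma, all lower in the knockout, where 2.93% of genes were so called in that direction, and none was so called as higher (background 2.14%). None of the 7 passed after adjustment over all probe sets, as none did anywhere in the table. Both knockout arrays lay below both wild-type arrays in 5 of the 7, against 20.5% of genes tested, and above them in 0 of the 7, against 17.1%. Counted by probe set, 8 of the 14 tested lay lower and 6 higher, against 54.7% lower over all. An unadjusted p under 0.05 was reached by 3 that lay lower (background 3.01%) and by 0 that lay higher (background 2.13%). Both knockout arrays were below both wild-type arrays on 6 of the 14, where 20% of all tested probe sets had that order, and above them on 0, where 17.4% did. Probe sets of 1 gene share their source and are not independent.

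**Figure D1:**
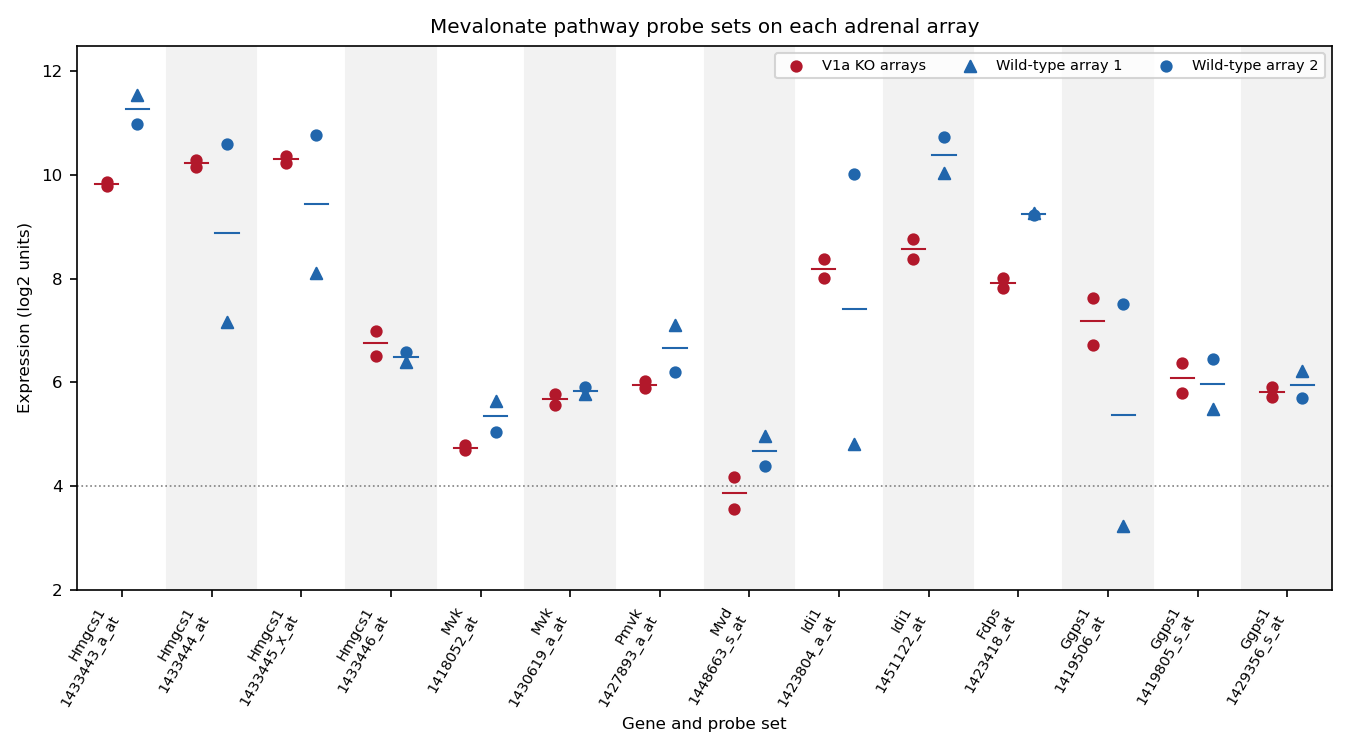
Expression in log2 units (vertical axis) of the 14 tested probe sets, ordered along the pathway (horizontal axis), on each array: red circles are the 2 V1a knockout arrays, the blue triangle wild-type array 1 and the blue circle wild-type array 2, short lines are the genotype means, and the dotted line is the filter at 4. The knockout arrays lie close together throughout, at most 0.90 apart, while wild-type array 1 drops to 7.17 on 1433444_at of Hmgcs1, 4.81 on 1423804_a_at of Idi1 and 3.23 on 1419506_at of Ggps1.

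Hmgcs1 encodes the cytosolic HMG-CoA synthase, which makes HMG-CoA, the precursor of mevalonate. Its brightest probe set, 1433443_a_at, read 9.87 and 9.79 in the knockout, against 11.54 and 10.99 in wild type. The groups did not overlap, and both knockout arrays were low and close together. The genotype means were 9.83 ± 0.06 in the knockout and 11.27 ± 0.39 in wild type (SD, n = 2 each), a difference of -1.44 (SE 0.25), that is 2.71-fold lower in the knockout with a 95% interval of 1.64 to 4.48. Its limma adjusted p was 0.794. Without wild-type array 1 the difference was -1.16 (SE 0.10).

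The other probe sets of Hmgcs1 gave another picture on 1 array. On 1433444_at the knockout arrays read 10.30 and 10.16, against 7.17 and 10.60 on the wild-type arrays. On 1433445_x_at they read 10.38 and 10.24, against 8.11 and 10.77. On both, wild-type array 1 was the lowest of the 4 arrays, by 2.99 and 2.13 log2 units below the next, and wild-type array 2 the highest. The differences over all arrays were 1.34 (SE 1.26) and 0.87 (SE 0.99), and without wild-type array 1 they were -0.37 (SE 0.12) and -0.46 (SE 0.12). The weaker 1433446_at read 6.99 and 6.52 in the knockout and 6.40 and 6.59 in wild type, which differ by 0.26 (SE 0.24) over all arrays and by 0.17 (SE 0.29) without wild-type array 1. These 4 probe sets were designed from 1 sequence record, and 1433443_a_at, which wild-type array 1 read highest, is among them. The fifth, 1441536_at, from another record, stayed at 2.45 to 2.53 on all arrays, below the filter. Without wild-type array 1 the knockout thus read lower on 3 of the 4 tested probe sets, and their differences spanned 1.33 log2 units instead of 2.78.

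Mvk, Pmvk and Mvd act on mevalonate, in that order: mevalonate kinase and phosphomevalonate kinase add phosphates, and mevalonate diphosphate decarboxylase makes isopentenyl diphosphate. Mvk read 5.57 and 5.77 in the knockout and 5.77 and 5.90 in wild type on 1430619_a_at. On 1418052_at it read 4.79 and 4.69 in the knockout, against 5.64 and 5.05 in wild type. The groups were apart on the second of these only. The differences were -0.17 (SE 0.18, 95% interval -0.67 to 0.34) and -0.60 (SE 0.27, 95% interval -1.37 to 0.16), so both probe sets pointed down and neither was larger than its error allows to call. Without wild-type array 1 they came to -0.23 and -0.31, within 0.08 log2 units of each other.

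Pmvk, with the single probe set 1427893_a_at, read 5.89 and 6.02 in the knockout, against 7.11 and 6.20 in wild type. The groups did not overlap, but wild-type array 2 lay only a little above the knockout, and wild-type array 1 carried most of the difference of -0.70 (SE 0.37, 95% interval -1.76 to 0.36). Without that array it was -0.24 (SE 0.11). Mvd read 4.17 and 3.57 in the knockout and 4.97 and 4.39 in wild type on 1448663_s_at, close to the filter, where GCRMA compresses differences. The difference was -0.81 (SE 0.34, 95% interval -1.79 to 0.16), and -0.52 (SE 0.36) without wild-type array 1. The other probe set of Mvd, 1417303_at, read 3.72 and 3.66 in the knockout and 4.95 and 3.80 in wild type, passed the filter on wild-type array 1 alone and was not tested. The limma adjusted p was 0.794 for 1418052_at of Mvk, for Pmvk and for the tested probe set of Mvd.

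Idi1 encodes isopentenyl diphosphate isomerase, which makes dimethylallyl diphosphate, the unit that starts each isoprenoid chain. Its probe set 1451122_at read 8.38 and 8.77 in the knockout, against 10.04 and 10.73 in wild type, with a gap between the groups larger than the range within either. The difference of -1.80 (SE 0.33) was the most negative of the 14, 3.49-fold lower in the knockout with a 95% interval of 1.82 to 6.71, and its limma adjusted p was 0.794. The means were 8.58 ± 0.28 in the knockout and 10.38 ± 0.49 in wild type (SD, n = 2 each).

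The other probe set of Idi1, 1423804_a_at, was designed from the same record and read 8.02 and 8.37 in the knockout, against 4.81 and 10.02 in wild type. Here the wild-type arrays were 5.21 log2 units apart, 1 far below and 1 above the knockout, so the mean difference of 0.78 (SE 1.92) describes neither. Against wild-type array 2 alone the knockout differed by -1.83 (SE 0.22) on 1423804_a_at and by -2.15 (SE 0.24) on 1451122_at. Both probe sets thus had a lower knockout level on the 3 arrays that remain, and their differences were 0.32 log2 units apart instead of 2.58 over all 4.

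Fdps encodes farnesyl diphosphate synthase, whose product feeds both squalene and protein farnesylation. Its probe set 1423418_at read 8.02 and 7.81 in the knockout, against 9.26 and 9.23 in wild type. Of all members it had the closest wild-type arrays among those whose groups were apart, 0.04 log2 units from each other, and wild-type array 1 did not stand out. The difference was -1.33 (SE 0.17), 2.52-fold lower in the knockout with a 95% interval of 1.79 to 3.54, and its limma adjusted p of 0.665 was the smallest of the 14. Leaving out wild-type array 1 gave -1.31 (SE 0.15), and the range over leaving out any 1 array was -1.43 to -1.23. The other probe set of Fdps, 1438150_at, was at the lowest value, 2.30, on every array.

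Ggps1 encodes geranylgeranyl diphosphate synthase, which lengthens farnesyl diphosphate for the lipid anchors of proteins and for ubiquinone. On 1419506_at it read 6.73 and 7.63 in the knockout, against 3.23 and 7.51 in wild type. Only wild-type array 1 was low, and the difference of 1.81 (SE 1.61, 95% interval -2.78 to 6.40) turned to -0.33 (SE 0.53) without it. On 1419805_s_at the knockout read 5.79 and 6.37 and wild type 5.48 and 6.45, and on 1429356_s_at the knockout read 5.73 and 5.91 and wild type 6.22 and 5.69. The groups overlapped on all 3, with differences of 0.11 (SE 0.44) and -0.14 (SE 0.25) on these 2, and -0.37 and 0.12 without wild-type array 1. The fourth probe set, 1419505_a_at, from the same record as 1419506_at, stayed at 3.57 to 3.89 on all arrays, below the filter.

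**Figure D2:**
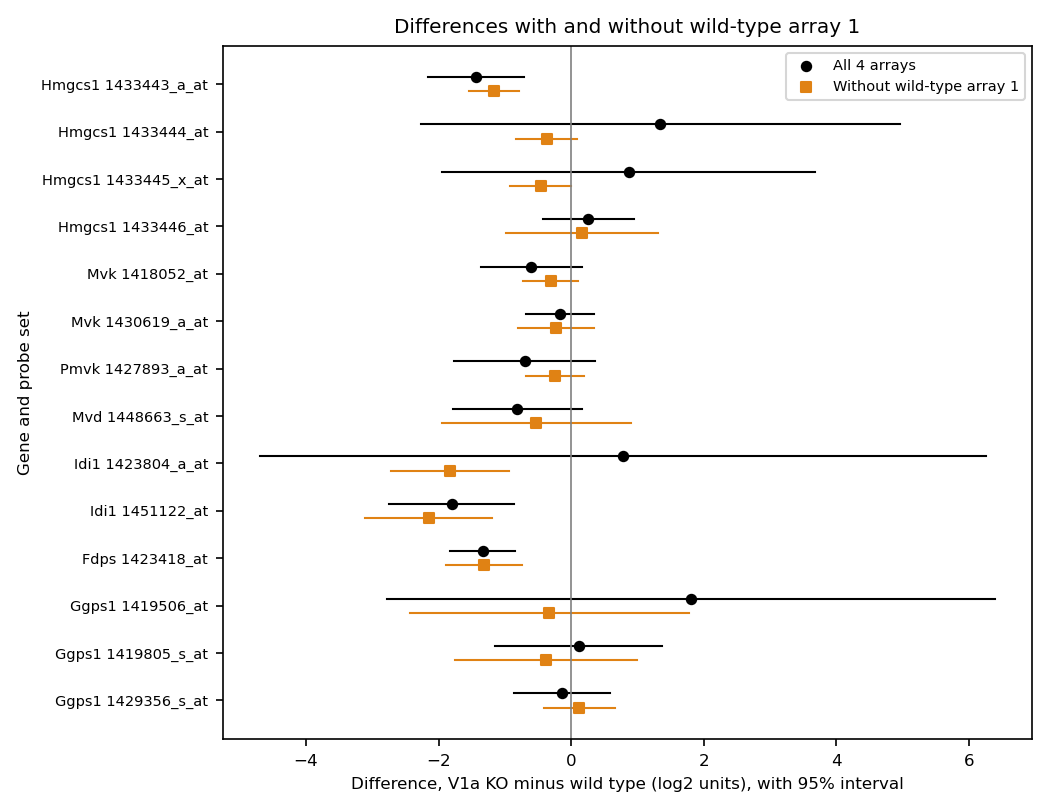
Difference, knockout minus wild type, in log2 units (horizontal axis) for the 14 tested probe sets (vertical axis), with limma's 95% interval, over all 4 arrays (black circles) and without wild-type array 1 (orange squares). The intervals of 1451122_at of Idi1, 1433443_a_at of Hmgcs1 and 1423418_at of Fdps lie below 0 in both. The points of 1433444_at and 1433445_x_at of Hmgcs1, 1423804_a_at of Idi1, and 1419506_at and 1419805_s_at of Ggps1 move from above 0 to below it. The point of 1429356_s_at of Ggps1 moves from below 0 to above it.

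Of the 4 members with more than 1 tested probe set, only Mvk had the same direction on all of them over the 4 arrays. Over all genes 1980 of 3861 such genes did (51.3%). The probe sets of these 4 members spanned a median of 2.26 log2 units, against 0.40 over all such genes. Without wild-type array 1, Idi1 joined Mvk, the median span was 0.41 against 0.25, and 62.4% of all such genes had 1 direction. Of the 14 tested probe sets of the pathway, 4 had wild-type array 1 more than 2 log2 units below all other arrays: 1433444_at and 1433445_x_at of Hmgcs1, 1423804_a_at of Idi1 and 1419506_at of Ggps1. The background is the 2.11% of all tested probe sets given above, and what sets these readings of wild-type array 1 apart was not tested.

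Without wild-type array 1, 12 of the 14 probe sets lay lower in the knockout, where 43.4% of all tested did. Both knockout arrays were below wild-type array 2 on 11 of the 14, against 31.9% over all. At an unadjusted p under 0.05 in limma there were 5, all lower (background 5.37%), namely 1433443_a_at and 1433445_x_at of Hmgcs1, both probe sets of Idi1 and 1423418_at of Fdps. After adjustment 0 of the 14 passed (smallest limma adjusted p 0.417), as did 0 of 17228 (0%). With 1 probe set for each gene, all 7 members then lay lower, with a median of -0.52, against 0.04 over all genes tested. Leaving out wild-type array 2 in its place gave the 4 probe sets just named as low on wild-type array 1 differences of 3.06, 2.20, 3.38 and 3.95 in the order given, and -1.71, -1.46 and -1.35 on 1433443_a_at of Hmgcs1, 1451122_at of Idi1 and 1423418_at of Fdps. Those 3 kept a lower knockout level whichever array was left out. So did both probe sets of Mvk and the tested probe set of Pmvk and of Mvd, with smaller differences.

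The steps that follow were read for comparison with 1 probe set for each gene. From squalene to cholesterol, 11 of the 12 listed genes were tested, and all 11 lay lower in the knockout, against 56% of all genes tested. Their median was -0.94. An unadjusted p under 0.05 in limma was found for 7 of the 11 (background 2.93%), and 0 passed after adjustment. Without wild-type array 1 the median was -1.01. Both knockout arrays lay below both wild-type arrays in 9 of the 11, against 20.5% of genes tested. The groups overlapped for Msmo1, at 10.21 and 10.13 in the knockout and 9.62 and 11.17 in wild type. They also overlapped for Sc5d, at 7.24 and 7.14 in the knockout and 7.11 and 7.66 in wild type. Wild-type array 1 was the lowest array for both Msmo1 and Sc5d. Fdft1, squalene synthase, which takes the product of Fdps, read 9.10 and 8.61 in the knockout and 9.87 and 9.76 in wild type, so it differed by -0.96 (SE 0.24). Sqle, which makes squalene epoxide, read 6.92 and 6.96 in the knockout and 7.78 and 8.62 in wild type (-1.26, SE 0.34). In both genes the knockout arrays were below both wild-type arrays. Lss, lanosterol synthase, differed by -0.94, and Tm7sf2, Nsdhl and Hsd17b7, which act on sterol intermediates, by -1.56, -0.87 and -1.46. Their groups did not overlap either. The 4 genes of this list with more than 1 tested probe set had 1 direction on all of them, with a median span of 0.35, but 3 of the 4 did without wild-type array 2. A test of the mevalonate against the squalene steps was not run.

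Of 9 tested genes of SREBP control and lipoprotein uptake, 7 lay lower and 2 higher, with a median of -0.27 and 0 at an unadjusted p under 0.05 in limma. Over all genes tested 56% lay lower, with a median of -0.05. There 2.93% were so called as lower and 2.14% as higher. Insig1, which holds SREBP in the endoplasmic reticulum and is itself an SREBP target, read 7.63 and 7.40 in the knockout and 8.11 and 9.07 in wild type. It differed by -1.07 (SE 0.39, 95% interval -2.19 to 0.04), and by -1.55 without wild-type array 1. Srebf1, which encodes the SREBP mainly tied to fatty acid synthesis, differed by -0.38 (SE 0.23), and by -0.15 without wild-type array 1. Among 12 tested genes tied to the use of isoprenoid diphosphates, 10 lay lower and 2 higher, with a median of -0.13. An unadjusted p under 0.05 in limma was reached by 0 of them, and the same background over all genes applies to this list. The lowest p values there belonged to Rabggta, a subunit of Rab geranylgeranyl transferase, at -0.79 (SE 0.44), and Pggt1b, the beta subunit of the type I geranylgeranyl transferase, at -0.46 (SE 0.28). Both were highest on wild-type array 1, and without it they differed by -0.25 and -0.14. Of the 5 other genes of the early steps, Acat1, a mitochondrial thiolase, was the 1 tested, at -0.16 (SE 0.29) over all arrays and 0.16 without wild-type array 1.

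**Figure D3:**
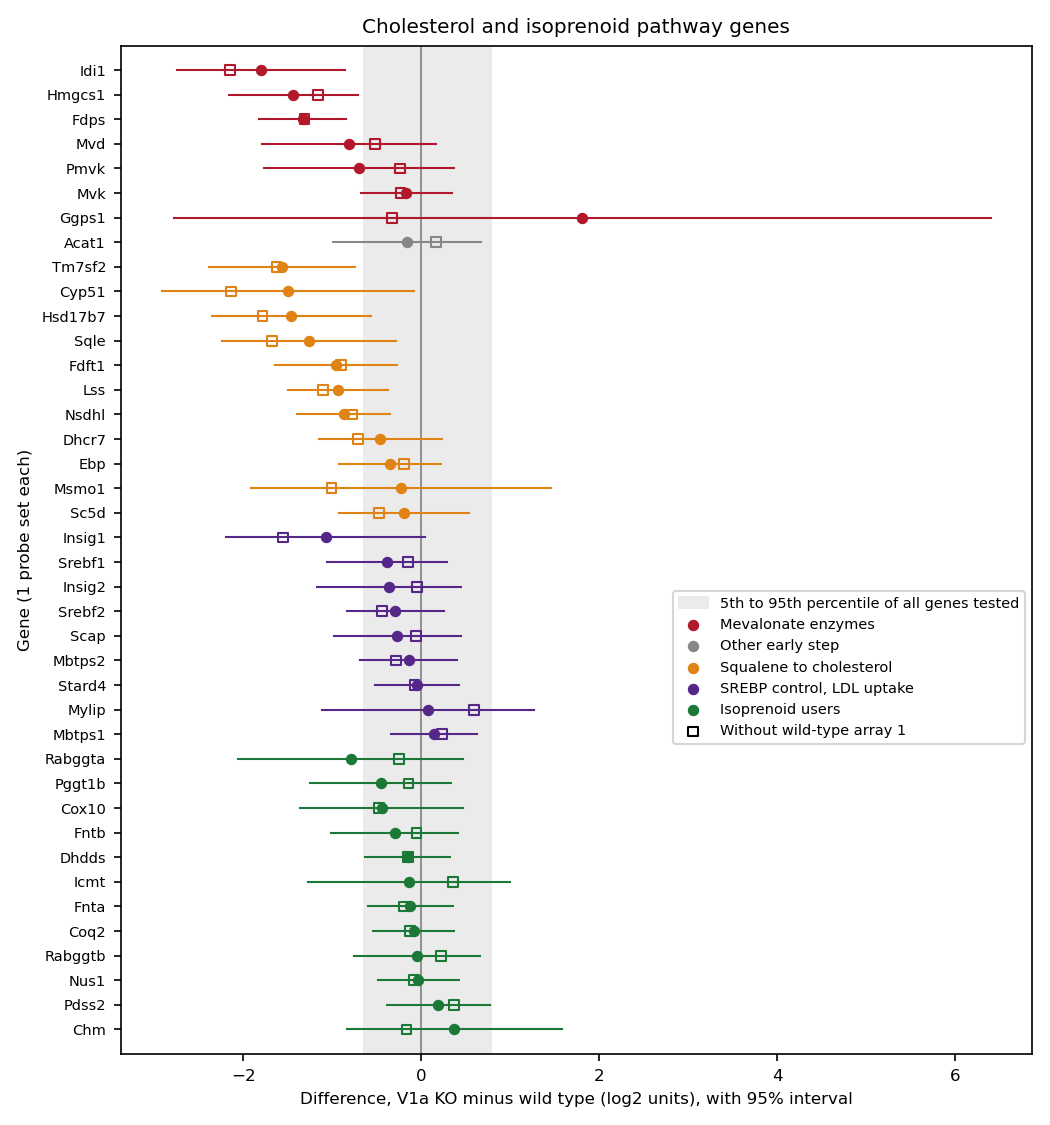
Difference, knockout minus wild type, in log2 units (horizontal axis) for the 40 tested pathway genes (vertical axis), 1 probe set each, with limma's 95% interval (filled circles and lines) and the value without wild-type array 1 (open squares), coloured by list. Grey marks the range from the 5th to the 95th percentile of all genes tested, -0.64 to 0.78. Among the mevalonate enzymes, the filled circles of Idi1, Hmgcs1, Fdps, Mvd and Pmvk lie below it. So do those of Tm7sf2, Cyp51, Hsd17b7, Sqle, Fdft1, Lss and Nsdhl of the squalene steps, and of Insig1 and Rabggta. The filled circle of Ggps1 lies above the range, and its value moves to -0.33 without wild-type array 1.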

How the data were processed

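The authors deposited log2 expression values per probe set of Mouse Genome 430 2.0 arrays. They used gcRMA from Bioconductor 3.14, per the labels' protocols. GCRMA adjusts a sequence-based background, normalizes between arrays and summarises probes, so weak probe sets gather near 2.30. Per the labels' protocols, only RNA with an integrity number of 8.0 to 9.0 was labelled. The log2 scale was read from the values. The number of arrays limits the precision.

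No further normalization was applied. The 64 control probe sets were left out. Genes came from the platform annotation (34945 probe sets with 1 gene, 932 with several, 9160 with none), checked against GRCm38.p6 through gene IDs, with 34741 matches and 0 symbols changed. Knockout was compared with wild type on all 17228 tested probe sets with limma 3.58.1 in R 4.3.3 (lmFit, eBayes, genotype only), with Benjamini-Hochberg adjustment and a threshold of 0.05. Each SE and 95% interval is limma's, with 2 residual and 1.73 prior degrees of freedom. The scripts were tested on simulated data. Members and lists were chosen with earlier results of these data known, so no list was tested. All probe sets of the members are named. Of each of the other 4 lists, up to 6 genes at an unadjusted p under 0.05 are named, otherwise the 2 with the smallest p. Genes named beyond this were chosen after their values were seen.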

Additional observations from a re-analysis of the deposited data

How the results depend on the processing

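With 2 arrays in each genotype, an adjusted call was rare under every setting, and 0 of the 142 member values recomputed under 11 alternatives passed (smallest limma adjusted p 0.0721, without wild-type array 2). The direction held in 135 of the 142, and the other 7 turned when an array was left out. Leaving out each array in turn moved 1419506_at of Ggps1 between -0.33 and 3.95, 1419805_s_at between -0.37 and 0.60 and 1429356_s_at between -0.40 and 0.12. The range was -1.83 to 3.38 for 1423804_a_at of Idi1, -0.37 to 3.06 for 1433444_at and -0.46 to 2.20 for 1433445_x_at of Hmgcs1. The same step moved the median of the members between -1.16 and -0.52, their count of agreeing genes between 1 and 2, SREBP control between -0.45 and -0.075, the isoprenoid users between -0.23 and -0.076 and Acat1 between -0.48 and 0.16. It also moved the count at an unadjusted p under 0.05, with 98 to 3789 lower ones among them. The count was 169 without knockout array 1, 205 without knockout array 2, 2062 without wild-type array 1 and 6507 without wild-type array 2, and the cause was not tested.

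The median of the members was -1.33 with a filter at 6 log2 units, which kept 5 genes and 10 probe sets, 4 of them lower. It was -0.60 with plain probe sets only, 3 of 6 lower, -0.51 with the mean of the probe sets of a gene and -0.60 with the dimmest tested one. The SREBP control median was -0.23 with quantile normalization, -0.20 with plain probe sets, and -0.14 with the mean of probe sets or the dimmest one. Without a filter 1545 probe sets had an unadjusted p under 0.05, 855 of them lower. The filter at 6, quantile normalization, median centring and plain probe sets each called 2 probe sets, of Adi1 and Xaf1 (named after their values were seen), and 0 of a member. The median of the squalene steps stayed between -1.01 and -0.84 under all alternatives run. With the replicate number as a block, 0 probe sets were called and 684 had an unadjusted p under 0.05. The deviations of same-numbered arrays correlated at 0.15 across probe sets. The arrays share a number and no known pairing, and this value cannot decide whether they were paired. All the medulla markers read higher on array 1 than on array 2 in both genotypes.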

Other observations

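Probe sets of 3 other genes of sterol handling are given here, chosen after their values were seen. Stard4, a carrier of cholesterol between membranes, read 4.60 and 4.56 in the knockout and 3.40 and 3.84 in wild type on 1429239_a_at, a difference of 0.96, while 1455011_at read 6.63 and 6.48 in the knockout and 7.10 and 6.95 in wild type, a difference of -0.46. The groups did not overlap on either, in opposite directions, and without wild-type array 1 the differences were 0.74 and -0.39. On 1429239_a_at both wild-type values were below the filter at 4. It was tested through the knockout arrays alone, so its higher knockout order was fixed by the filter. The remaining tested probe set of Stard4, 1429240_at, had overlapping groups and a difference of -0.05, and it has the highest mean and stands for the gene in the list. Srebf2, which encodes the SREBP of cholesterol synthesis, lay lower on both of its tested probe sets, 1426744_at (-0.69) and 1452174_at (-0.29), and without wild-type array 1 the values were -0.81 and -0.44. Cyp51, a sterol demethylase with both probe sets lower, differed by -1.39 on 1422533_at and -1.50 on 1450646_at, and by -2.12 and -2.14 without wild-type array 1.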
